A study of Mus musculus with 16 samples.

Results

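Bmp10 and Eng encode a secreted ligand and its co-receptor. The sites described here were selected on gene name, as every row of the authors' deposited table of differentially methylated (DM) m6A sites that is named Bmp10 or Eng, and the logFC and p values of that table were known when the pair was chosen. Each gene has 1 site, which makes 2 of the 622 listed sites. The table compares livers of 4 wild type mice (Albumin-Cre;Mettl14+/+) with livers of 4 liver-specific knockout mice (Albumin-Cre;Mettl14 flox/flox). Both groups carry Cre recombinase under the albumin promoter, which is active in hepatocytes, and both were on a 42% high-fat diet for 3 months. Neither the age of the mice nor their sex is given in the sources used here. Mettl14 encodes the partner of Mettl3 in the complex that writes N6-methyladenosine (m6A) into mRNA. Each mouse gave 1 INPUT library and 1 m6A-IP library, 16 libraries in all, where the m6A-IP library holds the fragments pulled down with an antibody against m6A.

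BMP10 is a circulating ligand of the TGF-beta superfamily. Together with the closely related BMP9, the product of Gdf2, it binds the receptor ALK1 (Acvrl1) and BMPR2 on endothelial cells, with endoglin as co-receptor, and the receptors phosphorylate SMAD proteins that switch on target genes such as those of the Id family. In liver, Bmp10 mRNA is known from hepatic stellate cells and Eng mRNA mainly from endothelial cells, so that neither gene is known as a hepatocyte gene, while the Cre of this model is driven from a hepatocyte promoter. The liver was profiled as a bulk tissue. In such samples, fewer cells of a type and less RNA per cell cannot be told apart, and the table names no cell type.

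The sequences of the sites are shown because they hold the candidate positions of the modified base. They were read from mm10 (GRCm38), 5′ to 3′ on the transcript strand, and capitals mark RRACH, the consensus around m6A, with R for either purine and H for any base but G. The whole Bmp10 site, chr6:87433781-87433830 on the plus strand, lies in the coding sequence.
Bmp10: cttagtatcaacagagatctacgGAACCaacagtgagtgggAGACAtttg
The Eng site, chr2:32681628-32681677 on the plus strand, lies in the 3′UTR, and the 30 bases from 32681644 to 32681673 that hold the densest run of its matches are shown.
Eng: cggccatGAACTtgtcccagGAACCAAACA

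The Bmp10 site had a large positive logFC. In the deposited table, its logFC is 4.45 with a p value of 8.42e-10. This coefficient is a natural log, so it stands for a fitted 86.0-fold difference in IP signal between the genotypes after adjustment for the INPUT library. The read counts behind this ratio are not given, so whether its size rests on few reads in either genotype was not tested. The Eng site has the same sign and a far smaller size. Its logFC in the deposited table is 0.60, a 1.83-fold difference, with a p value of 3.11e-04. Which genotype is the reference is not given in the sources used here, and Mettl14 itself has 0 sites in the table that could show it. The direction is therefore described by sign only: the same genotype had the higher IP signal at both sites. Of all listed sites, 66.4% have a positive logFC, so a positive sign is the more common case for a single site of this table.

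The positions of both sites in the whole table differ more than their shared sign. Bmp10 ranks 24 of 622 by logFC, with 23 sites (3.70%) above it, and 4 sites (0.643%) have a smaller p value. Eng ranks 405 by logFC, with 65.0% of the sites above it, and 72.5% of the sites have a smaller p value. Among the 413 positive sites, 8 have a smaller logFC than Eng. Positive sites fall in separate ranges of logFC, since 76 lie between 0.50 and 1.57, 337 lie between 2.14 and 5.33, and none lies between 1.57 and 2.14. Eng belongs to the lower range, whose median is 0.80, and Bmp10 to the upper range, whose median is 3.40. An absolute logFC above 2 is held by 56.6% of all listed sites, and by 1 of the 2 sites described here.

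**Figure D1:**
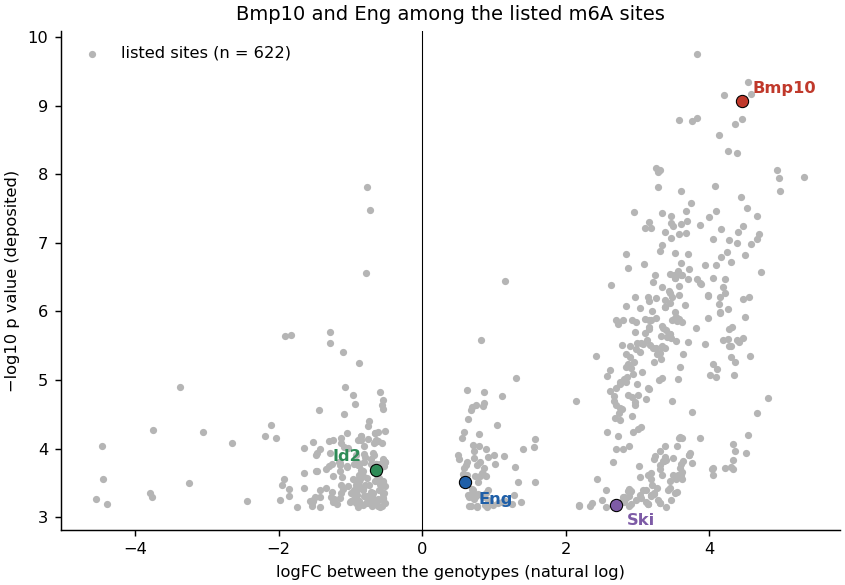
The logFC between the genotypes (natural log, horizontal axis) is plotted against −log10 of the p value (vertical axis) for the 622 listed sites, each a grey point, with Bmp10, Eng and the pathway genes Ski and Id2 in colour. Bmp10 lies near the top right at a logFC of 4.45, Eng near the lower edge at 0.60, and no positive site lies between 1.57 and 2.14.

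The ratios of the pair also differ in form. For Bmp10, e to the power of the logFC is 86.0 and lies within 0.01 of a whole number, while for Eng it is 1.83 and does not. Of the 352 sites with an absolute logFC above 2, 158 (44.9%, 95% Wilson interval 39.8% to 50.1%) have a ratio within 0.01 of a whole number. Of the 270 smaller sites, 5 (1.85%, 95% Wilson interval 0.794% to 4.26%) do. These intervals cover counting error over sites only. Every site with a larger absolute logFC than Bmp10 has a whole-number ratio in this sense, as do the sites nearest to Bmp10 in logFC. The table gives neither the read counts behind a ratio nor a value per mouse, so how many reads stood in either genotype at the Bmp10 site was not tested.

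The precision of each effect can be derived only indirectly. The test of RADAR is a Wald test, in which the coefficient is divided by its standard error (SE). If the listed p value is that of the test, without adjustment for multiple comparisons, and the statistic is read against a normal distribution, the SE follows from the logFC and the p value. Whether the listed p values were adjusted is not given in the sources used here, and with adjusted values all implied SEs and intervals would change. For Bmp10, this implied SE is 0.73 with a 95% interval of the logFC from 3.03 to 5.88, or a ratio from 20.7 to 357. For Eng, the implied SE is 0.17 with a 95% interval from 0.28 to 0.93, or a ratio from 1.32 to 2.54. The implied intervals of the pair do not overlap. They come from values that were known when the pair was chosen, so nothing is read from this. The listed effect of Bmp10 is the larger, and on this normal reading its SE is also the larger. Of all sites, 68.0% have a smaller SE than Bmp10 and 8.20% a smaller SE than Eng. Part of that order is set by the table itself: its largest p value is 7.11e-04, so that a site as small as Eng could be listed only with an SE of at most 0.18, and a site as large as Bmp10 with an SE of up to 1.32. If the statistic is read against a t distribution with 6 degrees of freedom, the implied SE becomes 0.068 for Bmp10 and 0.081 for Eng, which turns their order. The reference distribution is not given in the sources used here. No interval over mice could be computed.

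**Figure D2:**
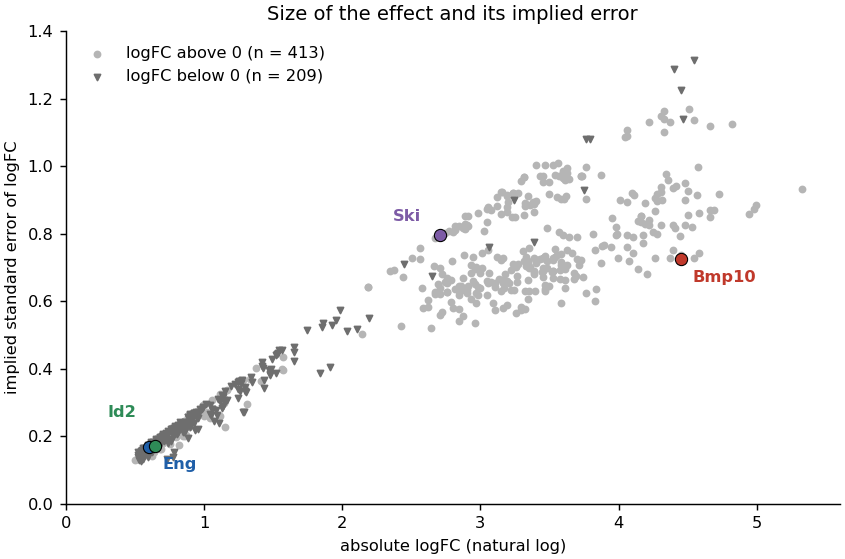
The implied SE of the logFC (vertical axis, from the logFC and a two-sided normal p value) is plotted against the absolute logFC (natural log, horizontal axis) for 413 positive sites (circles) and 209 negative sites (triangles). Eng and Id2 lie at the lower left with SEs of 0.17, Ski near the upper edge at 0.79, and Bmp10 at the lower side of the sites of its size at 0.73.

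The sites with nearly the same logFC as Bmp10 show how it compares at matched size. Etv5, which encodes an ETS family transcription factor, has the same logFC of 4.45 and a p value of 1.56e-09. Rnf185, which encodes a ubiquitin ligase, has a logFC of 4.44. Epn1, Pcsk7 and Pgp tie for the next place at 4.48, with p values of 2.46e-06, 5.77e-08 and 6.60e-07. All 5 have a larger p value than Bmp10, implied SEs from 0.74 to 0.95, and 0 RRACH matches, against 2 in Bmp10. At nearly the same logFC, the larger implied SE only restates the larger p value, from which it is derived. Of all 622 listed sites, 244 hold 0 RRACH matches. In the order of p values, Bmp10 follows Irs2, an adaptor of the insulin receptor (logFC 4.20, p value 6.89e-10), and precedes Tmem119 (logFC 3.84, p value 1.50e-09).

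The neighbours of Eng are sites of modest size. Fbln5, which encodes the extracellular matrix protein fibulin-5, has a logFC of 0.61 and an implied SE of 0.16. Cldn2, which encodes a tight junction protein, has a logFC of 0.62 with an implied SE of 0.14, and Chdh, which encodes choline dehydrogenase, has a site at 0.58 with an implied SE of 0.16. All 3 lie in 3′UTRs, as Eng does, and hold 1, 2 and 3 RRACH matches, against 4 in Eng. Of the 569 sites that could be placed on a coding transcript, 206 (36.2%) lie in 3′UTRs. Chdh has another listed site in its coding sequence, with a logFC of 3.48. The sites next to Eng in the order of p values differ from it in size and from each other in sign, with a logFC of 0.78 for Hmg20b and of -3.25 for Brd1. At almost the same p value of 3.12e-04, Brd1 has an implied SE of 0.90, against 0.17 for Eng.

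**Figure D3:**
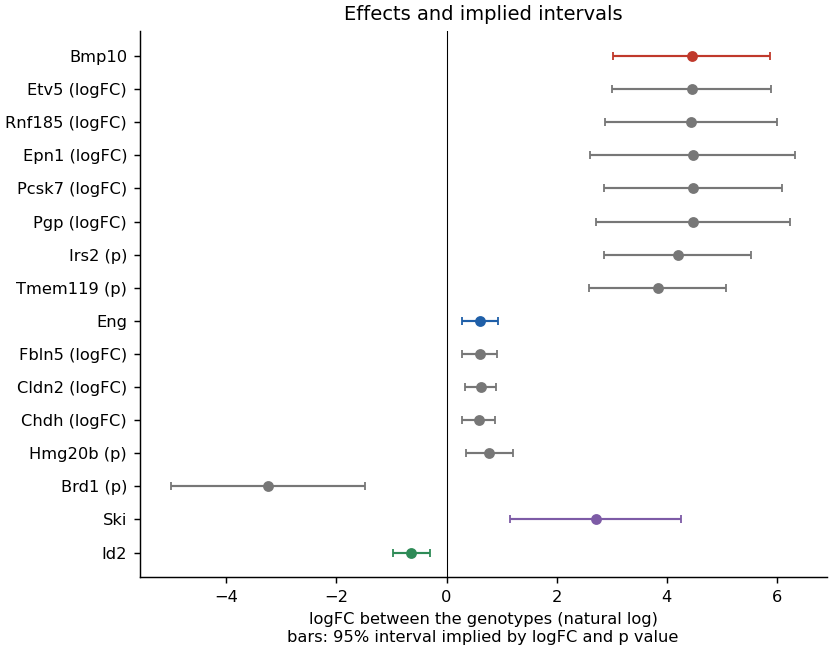
The logFC between the genotypes (natural log, horizontal axis) is plotted as points, with bars for the 95% interval implied by the logFC and a two-sided normal p value. Bmp10 and Eng head the sites nearest to them in logFC or in p value, and the pathway genes Ski and Id2 stand last; the bar of Bmp10 runs from 3.03 to 5.88 and that of Eng from 0.28 to 0.93.

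Bmp10 has 1 coding transcript in GENCODE M21, ENSMUST00000032125.6, with 2 exons. The site lies in exon 2, the last exon, and starts 220 nt after the exon junction. In the coding sequence of 1263 nt it covers nucleotides 555 to 604, or codons 185 to 202 of 421. BMP10 is made as a precursor that furin-type proteases cleave, and the reading frame holds 1 cleavage motif (arginine, any residue, lysine or arginine, arginine), which ends at codon 313. The site thus lies in the codons of the propeptide, upstream of the 108 codons that follow the motif and encode the mature ligand. The site ends 659 nt before the stop codon. The gene models agree on this place but not on what follows, since the 3′UTR of Bmp10 is 3185 nt long in GENCODE and 20 nt in the RefSeq transcript.

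Eng has 4 coding transcripts in GENCODE M21, of which 3 hold the site. In the longest, ENSMUST00000009705.13, the site lies in exon 15 of 15 and starts 191 nt after the exon junction and 67 nt after the stop codon. This transcript has 653 codons and a 3′UTR of 1097 nt. ENSMUST00000167841.7, with 652 codons, gives the same distance of 67 nt. ENSMUST00000113272.7, which has 641 codons and a different end of the reading frame, holds the site in exon 14 of 14, and there it starts 242 nt after the stop codon. The site is in the 3′UTR in each of the 3, so it does not tell these forms of endoglin apart. ENSMUST00000156306.1 is a partial model of 935 nt that does not reach the site. No other gene of the annotation overlaps either site.

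Both sites therefore lie wholly in the last exon of their genes, in one case before the stop codon and in the other after it. Of the 569 sites that could be placed on the longest coding transcript of their gene, 60.1% lie wholly in the last exon. Sites in the coding part of the last exon, as in Bmp10, make up 23.7% (135 sites), and sites in the 3′UTR within 400 nt of the stop codon, as in Eng, 21.1% (120 sites).

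**Figure D4:**
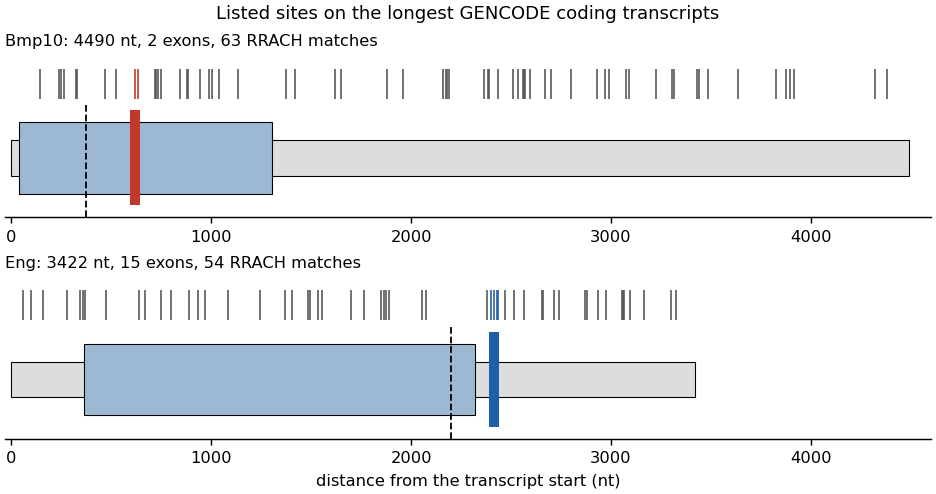
The longest coding transcripts of Bmp10 (4490 nt) and Eng (3422 nt) are drawn to scale by distance from the transcript start, with the coding sequence as the tall blue box, the UTRs in grey, the start of the last exon as a dashed line, the listed site in colour and the RRACH matches as ticks above. The Bmp10 site lies in the coding sequence with 2 ticks above it, and the Eng site lies just after the coding sequence with 4 closely spaced ticks.

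The motif content of the sites played no part in their choice. The Bmp10 site holds 2 RRACH matches, GAACC at bases 24 to 28 of the site and AGACA at bases 42 to 46. In both, the central A is the first base of a codon, codon 194 at chromosome 6 position 87433806 and codon 200 at position 87433824. The Eng site holds 4 matches, AAACC at bases 10 to 14, GAACT at bases 24 to 28, GAACC at bases 37 to 41 and AAACA at bases 42 to 46, the last pair directly adjoining. The pentamer GAACC thus occurs in both sites. Neither site holds GGAC, the core of the most commonly methylated form. The table gives no position within a site, so which of these adenosines was methylated cannot be told apart.

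Of all listed sites, 60.8% hold at least 1 RRACH match. At least 2 matches, as in Bmp10, are held by 130 sites (20.9%), and 4 matches, as in Eng, by 7 sites (1.13%), the highest number found in any site. Eng is the only one of those 7 in a 3′UTR, and the other six, in Heca, Asb7, Zfp3, Aff1, Fam210a and Trmt10c, lie in coding sequences with logFC values from -2.03 to 3.16. The share of sites with at least 2 matches is 17.2% of the 337 sites with a logFC above 2 and 17.1% of the 76 smaller positive sites. Among the 209 negative sites it is 28.2% (59 sites, 95% Wilson interval 22.6% to 34.7%).

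**Figure D5:**
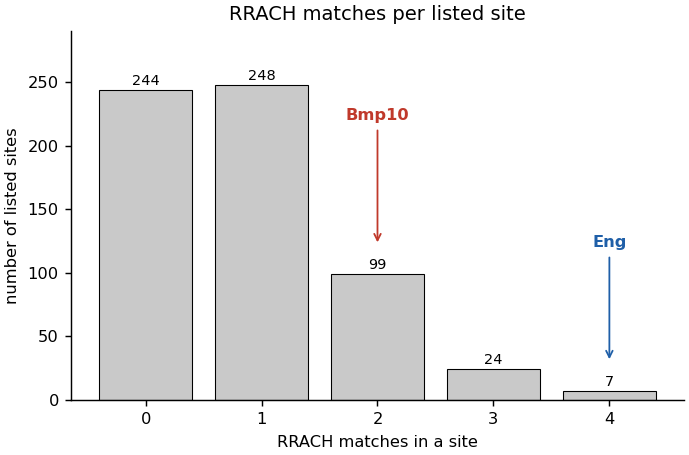
The number of listed sites (vertical axis) is drawn by the number of RRACH matches they hold (horizontal axis), with arrows to the bars of Bmp10 and Eng. Bmp10 is 1 of 99 sites with 2 matches and Eng 1 of 7 with 4, while 244 sites hold none.

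The transcripts of the pair give another background for the motif. The Bmp10 transcript holds 63 RRACH matches, 22 in the coding sequence and 41 in the 3′UTR, or 1.40 per 100 nt. Of all its windows of 50 nt, 45.4% hold at least 1 match and 14.7% at least 2, as the site does. The Eng transcript holds 54 matches, 6 in the 5′UTR, 25 in the coding sequence and 23 in the 3′UTR, or 1.58 per 100 nt. At least 1 match is found in 53.7% of its windows of 50 nt, but 4 matches in only 0.593%. No window of 50 nt in either transcript holds more than 4, and the listed Eng site lies at 1 of the 3 stretches of its transcript that reach that number, whereas the Bmp10 site lies at none. With 50 nt of transcript added on each side, the count stays at 2 for Bmp10 and comes to 6 for Eng. The nearest GGAC lies 69 nt before the Bmp10 site and 276 nt after the Eng site. The GC content of the sites is 44.0% in Bmp10 and 54.0% in Eng, with 19.5% and 52.1% of all sites below these values.

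Neither site has a second place in the genome. At 95% identity over 95% of the site, 0 other matches were found for either.

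Beside Bmp10 and Eng, Ski and Id2 are the genes of the pathway lists with a site. In all, 4 of the 72 genes in these lists (5.56%) have one. The lists do not hold every related gene. Gdf10 (logFC 2.89) and Tgfbrap1 (logFC 4.56) have sites and are not on them. Of all 21877 protein-coding gene names in GENCODE M21, which include genes not expressed in liver, 571 (2.61%) have a site. Bmp10 and Eng were known to be in the table when the lists were written, so nothing is read from that difference. Among the 15 BMP and TGF-beta ligands on the lists, 1 has a site, and Gdf2, which encodes BMP9, has none. Among receptors 1 of 17 has a site, so that neither Acvrl1 nor Bmpr2, the receptors that bind BMP10, is listed beside Eng. Antagonists and ligand-processing proteins have 0 of 16, SMAD proteins and their partners 1 of 12 and BMP target genes 1 of 14. Of the furin-type proteases, the list of ligand-processing proteins holds only Furin, and Pcsk7, whose site is named above, is not on it. Over the 4 sites of list genes the median logFC is 1.66, against 2.72 for all sites, and 3 of the 4 are positive. A gene that is not listed may have been tested without passing or may not have been tested, and the table does not tell which.

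The Ski and Id2 sites stand downstream of the receptor. Ski encodes a co-repressor that binds SMAD proteins. Its site has a logFC of 2.71, a ratio of 15, with a p value of 6.57e-04, near the largest in the table, and an implied SE of 0.79. It lies in the coding sequence in exon 1 of 7. Id2, a BMP target gene, encodes an inhibitor of basic helix-loop-helix transcription factors. Its site is the only negative one of the 4, with a logFC of -0.64 in the deposited table (p value 2.03e-04, implied SE 0.17), close in absolute size to Eng and opposite in sign. It lies in the 3′UTR in exon 4 of 4. Unlike Bmp10 and Eng, both sites hold a GGAC, as the sequences of the whole Ski site (chr4:155221691-155221740, minus strand) and of 30 bases of the Id2 site (chr12:25094444-25094473, minus strand) show. The capitals again mark RRACH, with 2 matches in each.
Ski: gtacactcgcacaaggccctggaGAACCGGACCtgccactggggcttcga
Id2: gaGAACAcgttgaatGGACCtttttaaaaa

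Marker genes of the liver cell types were also looked up, against the same share of 2.61% of all protein-coding gene names. Eng is the only one of 22 endothelial markers with a site, and Bmp10 the only one of 18 hepatic stellate cell markers. Both were known to have a site when these lists were written, so nothing is read from either count. Of 14 markers of Kupffer cells and macrophages, C1qb (logFC 0.73) and C1qc (0.81), which encode chains of complement C1q, have a site each. Of 16 hepatocyte markers, Apob, which encodes the main protein of low-density lipoprotein, has 3 sites with logFC values from -0.76 to -0.52. Cholangiocyte markers have 0 of 7. All of these marker lists were chosen with earlier results of these data known, so nothing is read from the other counts against that share either. Whether the number of cells of each type differed between the genotypes was not tested, since INPUT levels per mouse are not analysed here.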

How the data were processed

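Total RNA of 8 livers was purified on poly(T) beads and sheared, and m6A-IP and INPUT libraries were sequenced as single-end reads. The authors mapped reads to mm10 with HISAT2 (version not given in the sources used here), counted them per 50-bp bin of the joined exons, scaled IP counts by the top 1% of bins, adjusted them by gene-level INPUT counts, removed bins with fewer than 15 reads, and tested genotype with RADAR, a Poisson random effect model. In the deposited table, logFC is the natural log coefficient of genotype. The p-values the authors deposited were taken to be those of its Wald test, and whether they were adjusted is not given in the sources used here. Both columns are the authors' own comparison and are used here as a description, without a further test. The table holds no values per mouse, so depth is unknown.

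Coordinates were counted from 1, since 90 of 90 inner block edges then lay on exon edges of GENCODE M21. Sequences were read from GRCm38 with pysam 0.24.0, motifs were searched on the transcript strand with overlaps allowed, and other genome matches with BLAST+ 2.17.0 (word size 11). SEs and Wilson intervals were computed with scipy 1.17.1. Motif search, SEs and placement were tested on simulated data. Named sites are Bmp10, Eng, pathway-list genes with a site, up to 4 sites per marker list, the 3 sites nearest to each in logFC (ties included) and those just before and after in p value. The genes with 4 RRACH matches, Gdf10, Tgfbrap1 and the other Chdh site were named after their values were seen. Members and lists were chosen with earlier results of these data known. Alternatives were other subsets of sites, motifs, strands, transcripts and match limits, and RefSeq transcripts were added after the data were seen.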

Additional observations from a re-analysis of the deposited data

How the results depend on the processing

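The share of sites with a larger logFC was 7.07% for Bmp10 and 83.6% for Eng among the 311 listed sites of smallest p value, and 5.57% and 97.8% among the 413 positive sites. The share with a smaller p value than Eng was 100% among those 311 and 81.8% among positive sites. The 100% was fixed by the choice of those 311, as Eng is not among them. The shares with a larger logFC among positive sites likewise follow from leaving out the negative sites. Single-bin sites, or 1 site per gene name, left these shares within their Wilson intervals. Implied SEs with 6 degrees of freedom were 0.068 for Bmp10 and 0.081 for Eng. GGAC matched 0 times in either site, and RRACH on the opposite strand 0 times in Bmp10 and 1 time in Eng. Over all sites, the share with a match was 69.1% for DRACH (D is A, G or T), 26.4% for GGAC and 39.5% for RRACH on the opposite strand. The midpoint of the Eng site lies 94 nt past the end of the coding sequence, and 269 nt in ENSMUST00000113272.7 and its RefSeq counterpart. At 85% identity over 60% of the site, Bmp10 had 2 other genome matches and Eng 1. The other alternatives kept shares within their Wilson intervals and counts within 1.5 times, the widest being the RRACH count of Eng, which came to 6 with 50 nt added on each side. No paired analysis was possible because the table holds no values per mouse, and for the same reason no mouse could be left out. Depth behind each site is unknown.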
